A study of Mus musculus with 30 samples.

Results

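The S100 genes encode small calcium-binding proteins, and 10 of them were followed here by their symbols: S100a1, S100a4, S100a6, S100a8, S100a9, S100a10, S100a11, S100a13, S100a16 and S100b. Each had 1 entry among the 19470 entries of the lung table and 1 among the 18845 of the spleen table. The tissues came from C57BL/6 mice aged 8 weeks that were wild type, lincRNA-Cox2 mutant or lincRNA-Cox2 knockout. The targeted transcript is a long noncoding RNA whose gene neighbours Ptgs2 (cyclooxygenase 2), and the labels do not say how either line was made. Mice received 20 mg/kg of lipopolysaccharide (LPS, a bacterial cell wall component sensed by Toll-like receptor 4) into the peritoneum for 6 h, or are labelled PBS. Each genotype and treatment had 3 LPS and 2 PBS libraries in each tissue, which makes 12 groups and 30 libraries. Nothing in the labels ties a library to a separate animal or a lung to a spleen, and no batch is given. Levels below are means per group of normalized counts as the authors deposited them, so no spread between replicates can be given. The deposited adjusted p-values measure only the spread between these libraries, which may be technical.

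S100 proteins bind calcium through paired EF-hand loops, mostly act as dimers, and change shape with calcium so that they can bind target proteins. S100A8 and S100A9 form calprotectin, which fills the cytosol of neutrophils, is released in inflammation, binds zinc and manganese, and signals through Toll-like receptor 4 and the receptor for advanced glycation end products (RAGE, encoded by Ager, a gene very active in the alveolar epithelium). S100A10 and S100A11 pair with annexins at membranes, S100A4 binds non-muscle myosin in moving cells, S100A6 is common in dividing and stromal cells, S100A13 takes part in the export of FGF1 and interleukin 1 alpha, S100A1 acts on calcium handling in heart muscle, and S100B is best known from glia.

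In GENCODE M21 (GRCm38, the assembly of mm10) all but S100b lie on chromosome 3. S100a8 is at chr3:90668978-90670035 on the plus strand and S100a9 at chr3:90692632-90695721 on the minus strand, 22.6 kb apart. S100a1 (chr3:90511034-90514392, minus) and S100a13 (chr3:90514435-90524581, plus) lie head to head with 42 bases between them. S100a16 (chr3:90537254-90543151), S100a4 (chr3:90603771-90606045) and S100a6 (chr3:90612882-90624181) follow on the plus strand. S100a11 (chr3:93520488-93526287) and S100a10 (chr3:93555080-93564643) lie 28.8 kb apart, 2825 kb beyond S100a9. S100b is on chromosome 10, at chr10:76253853-76261159. No source used here states that reads were counted by strand, so reads at the S100a1 and S100a13 starts cannot be told apart by strand, and S100a11 shares sequence with the processed pseudogene S100a11-ps on chromosome 12, which makes its level less certain.

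The RefSeq promoter table (GRCm38.p6) held 9 of the 10 genes and not S100a10. The 250 bases before each start were searched on both strands for 8 patterns, and 3 promoters are shown because S100a8 and S100a9 had the highest LPS ratios of the 10 genes in lung and S100a11 a lower one. Capitals mark pattern matches, sequences run 5′ to 3′ on the gene's own strand, and the plus-strand stretches end where GENCODE M21 places the first exon.
S100a8, chr3:90668821-90668977, plus strand: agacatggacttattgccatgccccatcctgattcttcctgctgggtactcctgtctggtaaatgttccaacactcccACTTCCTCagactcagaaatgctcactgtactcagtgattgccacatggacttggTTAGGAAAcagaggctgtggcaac
S100a9, chr3:90695722-90695971, minus strand: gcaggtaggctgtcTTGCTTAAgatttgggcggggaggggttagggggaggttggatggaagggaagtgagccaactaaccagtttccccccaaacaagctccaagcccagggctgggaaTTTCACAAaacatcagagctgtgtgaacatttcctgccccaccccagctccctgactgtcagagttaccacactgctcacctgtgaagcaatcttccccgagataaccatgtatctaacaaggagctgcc
S100a11, chr3:93520246-93520487, plus strand: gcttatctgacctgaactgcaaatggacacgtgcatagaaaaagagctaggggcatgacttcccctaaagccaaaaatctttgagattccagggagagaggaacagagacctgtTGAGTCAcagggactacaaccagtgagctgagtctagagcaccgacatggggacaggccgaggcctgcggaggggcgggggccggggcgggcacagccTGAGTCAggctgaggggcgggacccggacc
Positions count back from the RefSeq start. The S100a8 window held TTAGGAAA at -117, which matches the C/EBP pattern TTNCNNAA on the other strand, and ACTTCCTC at -172, which is the PU.1 pattern GAGGAAGT on the other strand, with a TATAAA at -30 beyond the stretch shown. The S100a9 window held TTGCTTAA at -236, which matches both TTNCNNAA and the narrower C/EBP pattern TTGCNNAA, and TTTCACAA at -130, which matches TTNCNNAA. Both S100a8 and S100a9 thus held TTNCNNAA, as did 36.8% of the 32851 promoters of the table, while TTGCNNAA was in 9.56% and GAGGAAGT in 2.44%. The S100a11 window held TGAGTCA at -136 and -38, the AP-1 pattern TGANTCA, found in 6.75% of promoters and also in the more downstream of 2 listed S100a16 windows, at -192. S100a4 held TATAAA at -31, a pattern of 12.4% of promoters. The NF-kB pattern of GGG and TTCC with any 3 bases between them (4.65% of promoters), its narrower form with A after GGG (1.21%) and the STAT pattern TTCNNNGAA (7.02%) were in none of the 10 windows of the 9 genes. These are matches of letters and no measured binding.

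Depth, estimated from the smallest steps in low means, was 5.20 to 17.3 M reads per lung library and 0.940 to 8.95 M per spleen library. The shallowest library belonged to the mutant spleens with LPS, where the other 2 held 7.61 and 2.42 M, and a group mean weights its libraries equally. LincRNA-Cox2 was at 34.8 (PBS) and 30.2 (LPS) in wild type lung and at 0 in both lines. Markers of alveolar type 2 cells summed to between 75070 and 103590 in the lung groups against 1135 to 1722 in spleen, and B cell markers to between 4047 and 11192 in spleen, although the tissues were normalized separately. With LPS, Xist, expressed from the inactive X chromosome of females, was at 14.5 in wild type, 4510 in mutant and 23.2 in knockout lungs, and at 31.3, 4670 and 33.7 in spleens. Y-linked Ddx3y ran the other way, so under LPS the mutant genotype and sex-linked expression cannot be told apart. With PBS every group expressed both genes, with Xist between 1910 and 3660 and Ddx3y between 294 and 447 in lung, so that each ratio of LPS to PBS also compares groups that differ in sex-linked expression, whose part cannot be told apart. Pancreatic acinar markers summed to between 1006 and 25000 in spleen groups and hepatocyte markers to between 18.5 and 3097, and skeletal muscle markers in lung ran from 58 to 3628; their part in the results below was not tested.

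**Figure D1:**
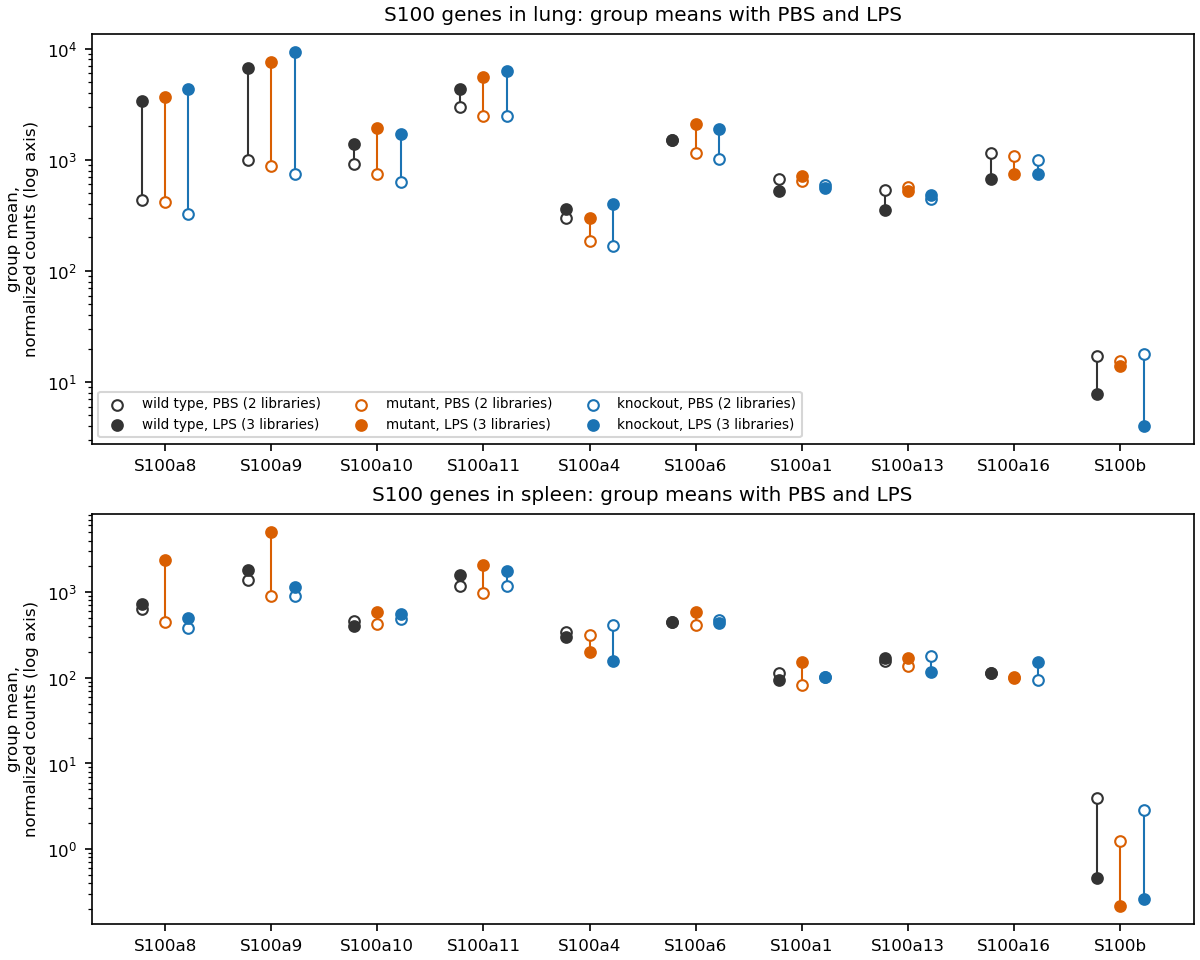
Group means of the 10 S100 genes in lung (top) and spleen (bottom), as normalized counts on a log axis, with open circles for PBS and filled circles for LPS in each genotype. S100a8 and S100a9 stand apart with LPS in all 3 lung genotypes and, in spleen, in the mutant, and S100b is the lowest gene in both tissues.

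In lung, the question was how these genes stood 6 h after LPS. The calprotectin genes were far higher with LPS in all 3 genotypes, the annexin-binding S100a10 and S100a11 and the stromal S100a6 were moderately higher in both lines, and S100a16 was lower in each genotype. A gene counted as different where the group means differed by at least 2-fold, with 1 added to each mean, and where at least 1 of the groups had a mean of 10 or more; all 10 genes met that minimum in lung and 9 in spleen, where S100b did not. This is a limit on size and no test. Where all LPS means are said to lie above or below all PBS means, the share of entries doing so was not counted. In wild type lung 2 of 10 genes were higher and 1 lower (13.9% and 14.3% of 15041 entries), in mutant lung 4 higher and 0 lower (15.5% and 16% of 15092), and in knockout lung 5 higher and 1 lower (16.9% and 17.7% of 15208). The median log2 ratio of the 10 genes was 0.12, 0.78 and 1.07 in wild type, mutant and knockout, against -0.03, -0.03 and -0.01 over all entries. Scaling every group to the same total shifts all log2 ratios by -0.36 to -0.50, and the counts then became 2 higher and 2 lower, 2 higher and 1 lower, and 3 higher and 1 lower. The shares of all entries on that scale were not computed.

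S100a8 in lung was at 437, 421 and 328 with PBS in wild type, mutant and knockout, and at 3350, 3700 and 4320 with LPS. All 3 LPS means lay above all 3 PBS means, by 7.67-fold, 8.79-fold and 13.2-fold within genotypes. The log2 ratios were 2.94 (2.84 to 3.03, a 95% interval that covers counting error only), 3.13 (3.05 to 3.21) and 3.72 (3.62 to 3.81). S100a9, its partner, was at 993, 885 and 744 with PBS and at 6700, 7510 and 9250 with LPS, with log2 ratios of 2.75, 3.08 and 3.63. The 2 transcripts kept a narrow ratio: S100a9 stood at 2.00 to 2.47 times S100a8 in the 12 groups, median 2.14, and at 1.87 to 2.31 times per kb of transcript. Together they made up 14.4% to 15.9% of the summed level of the 10 genes in the lung groups with PBS and 48.4% to 52.9% with LPS. With the group totals made equal their log2 ratios were 2.58 and 2.39, 2.63 and 2.58, and 3.30 and 3.22.

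Markers of neutrophils, the cells richest in calprotectin, were higher with LPS in the same lungs. Markers of mature neutrophils (9 of 10 listed, such as Cxcr2, Mmp8 and Il1r2) summed to between 1919 and 2380 with PBS and between 15256 and 18979 with LPS. Markers of immature neutrophils (10 of 10 listed, such as Ngp, Camp and Lcn2) summed to between 2388 and 4285 with PBS and between 42127 and 53941 with LPS. Lcn2, an acute phase gene, made up most of each LPS sum. Without it the other 9 summed to 3095, 2938 and 1663 with PBS in wild type, mutant and knockout. With LPS they summed to 12627, 14359 and 15341. Chil3 made up most of each PBS sum, at 2650, 2460 and 1300, and was at 5340, 5600 and 6590 with LPS. In wild type lung 9 of the 9 measured mature and 10 of the 10 immature markers were at least 2-fold higher; Ctsg was at 0 in knockout lung with PBS, and no other marker of either list was at 0 in any group. Their part in the S100a8 and S100a9 levels was not tested. In bulk tissue, fewer cells of a type and less RNA per cell cannot be told apart, nor can more cells and more RNA per cell.

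S100a10, whose protein forms a complex with annexin A2 at the plasma membrane, was in lung at 917, 737 and 637 with PBS and at 1380, 1950 and 1720 with LPS. Each LPS mean exceeded each PBS mean, and the log2 ratios were 0.59, 1.40 and 1.43. S100a11, which binds annexin A1, was at 2990, 2500 and 2480 with PBS and at 4360, 5600 and 6280 with LPS, with log2 ratios of 0.54, 1.16 and 1.34. Both genes passed 2-fold in the mutant and the knockout and not in wild type, and with equal group totals only S100a10 passed it, in the knockout. The larger ratios of the lines came from both ends, since their PBS means were below that of wild type and their LPS means above it.

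S100a6, a gene of dividing and stromal cells, was in lung at 1520, 1150 and 1020 with PBS and at 1510, 2090 and 1880 with LPS. Its log2 ratio was -0.01 in wild type and 0.86 and 0.88 in the lines, all under 2-fold. S100a4, which marks motile fibroblasts, T cells and myeloid cells, was at 300, 184 and 169 with PBS and at 357, 300 and 403 with LPS. Its log2 ratios were 0.25, 0.70 and 1.25; with equal group totals the first turned below 0 and the last no longer passed 2-fold. Of the 6 means, the wild type PBS mean of S100a4 equals the mutant LPS mean, so the treatments overlap across genotypes for this gene.

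The remaining genes were level or lower in lung. S100a16, a widely expressed family member, was at 1140, 1090 and 1000 with PBS and at 676, 749 and 742 with LPS. All 3 LPS means lay below the PBS means, with log2 ratios of -0.75, -0.54 and -0.43, short of 2-fold, which the wild type and mutant ratios passed with equal group totals. S100a13, which takes part in the release of proteins that lack a signal peptide, was at 533, 564 and 448 with PBS and at 351, 524 and 486 with LPS, with log2 ratios of -0.60, -0.11 and 0.12. S100a1, best known from cardiac muscle, was at 668, 643 and 592 with PBS and at 525, 715 and 553 with LPS, with log2 ratios of -0.35, 0.15 and -0.10. The knockout ratio of S100a13 and the mutant ratio of S100a1 turned below 0 with equal group totals. Cardiac muscle markers (7 of 7 listed, none at 0) summed to between 2194 and 2999 in lung with PBS and between 1797 and 3199 with LPS; the lowest of these sums, 1797, was that of mutant lung with LPS, where S100a1 was highest, and their part was not tested.

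S100b was near the bottom of the lung range, at 17, 15.5 and 17.7 with PBS and at 7.84, 13.8 and 4.06 with LPS. S100b was the gene counted as lower in wild type and knockout lung; the wild type ratio fell short of 2-fold with a pseudocount of 5 (-0.78) or centring on the median of all entries (-0.998). The lowest mean rested on 7 to 10 reads in 3 libraries. The log2 ratios and their counting intervals were -1.03 (-1.77 to -0.28) in wild type, -0.16 (-0.76 to 0.45) in the mutant and -1.89 (-2.94 to -0.83) in the knockout. The mutant interval spans 0, so at this depth no difference was detectable there. Schwann cell markers summed to between 750 and 770 with PBS and between 1294 and 1401 with LPS, mostly through Mbp, while the lineage factor Sox10 stood between 0.66 and 2.21; none of the 6 markers was at 0 in lung, and their part was not tested.

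**Figure D2:**
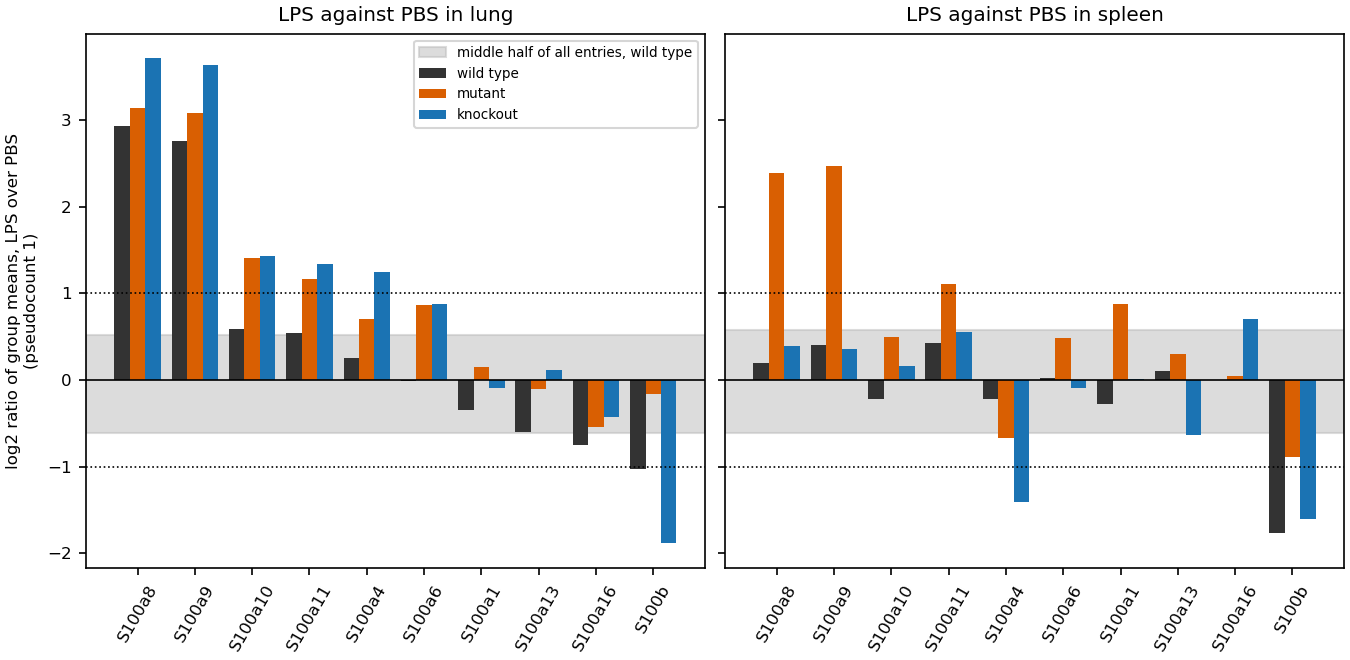
Log2 ratio of the LPS group mean to the PBS group mean (pseudocount 1) for each S100 gene and genotype in lung (left) and spleen (right), with the interquartile range of all entries in wild type shaded (-0.61 to 0.51 in lung, -0.61 to 0.58 in spleen). In spleen the S100a8 and S100a9 bars reach 2.39 and 2.47 in the mutant against 0.20 and 0.40 in wild type and 0.39 and 0.35 in the knockout; with equal group totals the wild type S100a8 bar and both knockout bars turn below 0.

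Spleen differed from lung in which genotypes had higher calprotectin transcripts with LPS. Wild type spleen had 0 of 9 measured S100 genes at least 2-fold higher or lower (13.5% and 14.8% of 13513 entries), mutant spleen 3 higher and 0 lower (15.3% and 16.7% of 13515), and knockout spleen 0 higher and 1 lower (16.6% and 18.7% of 13514). The median log2 ratio of the 9 genes was 0.02, 0.49 and 0.16, against 0.02, 0.00 and -0.02 over all entries. With equal group totals, where the shares of all entries were not computed, the mutant had 2 higher and 1 lower and the knockout 0 higher and 2 lower.

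S100a8 in spleen was at 638, 449 and 383 with PBS in wild type, mutant and knockout, and at 733, 2350 and 502 with LPS. The mutant LPS mean stood apart from the other 5, which spanned 383 to 733. Its log2 ratio to PBS was 2.39 (2.30 to 2.48, counting error only), against 0.20 in wild type and 0.39 in the knockout. That interval is too narrow, as it pools the reads of libraries of unequal depth. With equal group totals the 3 ratios were 1.95, -0.19 and -0.07. S100a9 was at 1370, 900 and 893 with PBS and at 1810, 4980 and 1140 with LPS, with log2 ratios of 0.40, 2.47 and 0.35, which became 0.01, 2.03 and -0.11 with equal group totals. The pair made up 65.3% of the summed S100 level in mutant spleen with LPS, 44.8% in wild type and 33.5% in the knockout. The group that stood apart holds the library with 0.940 M reads, and its mean does not show whether all 3 libraries were high.

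Summed neutrophil markers were also highest in mutant spleens with LPS. Mature neutrophil markers (9 of 10 listed, none at 0) summed to between 686 and 1273 with PBS and to 1831, 2942 and 1500 with LPS in wild type, mutant and knockout. In these genotypes 4, 6 and 4 of the 9 were at least 2-fold higher with LPS, and 2, 0 and 1 lower. Cxcr2, Csf3r and Mmp9 had their highest means in wild type spleen with PBS, at 188, 411 and 131. In mutant spleen with LPS they were at 130, 319 and 91.9. Immature neutrophil markers (10 of 10 listed, none at 0) summed to between 2380 and 4526 with PBS and to 9231, 25422 and 8023 with LPS. Without Lcn2, an acute phase gene, the sums of the other 9 were 3787, 2664 and 2046 with PBS and 3611, 15222 and 2373 with LPS, so the higher LPS sum of wild type spleen rested on Lcn2. In mutant spleen 9 of 10 immature markers were at least 2-fold higher with LPS, against 1 of 10 in wild type and in the knockout, where 2 and 3 were at least 2-fold lower and the median log2 ratios were -0.54 and -0.55. Elane, which encodes neutrophil elastase, was at 83.8, 408 and 50.6 with LPS, and Ltf, which encodes lactoferrin, at 472, 2232 and 258. In knockout against mutant spleen under LPS, 0.177% of 11871 tested entries were called in either direction. There the authors' deposited table calls 4 of the 8 immature markers with an adjusted p lower in the knockout: Elane (log2 fold -2.55, adjusted p 0.00411), Ltf (-2.52, 0.0108), Ctsg (-2.30, 0.0241) and Prtn3 (-2.39, 0.0342). Their part in the S100a8 and S100a9 levels was not tested.

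**Figure D3:**
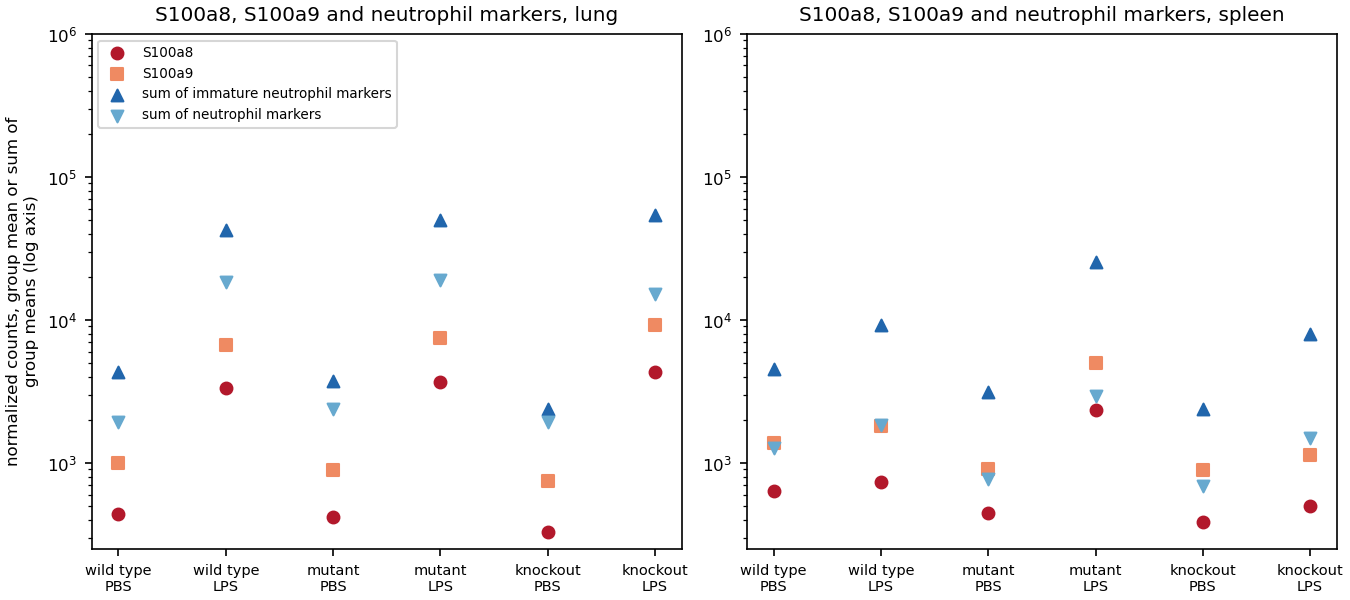
S100a8 and S100a9 group means and the summed group means of 9 mature and 10 immature neutrophil markers in the 6 groups of each tissue, as normalized counts on a log axis. In lung all 4 series are higher with LPS in every genotype, and in spleen their highest group is the mutant with LPS, at 2350 for S100a8, 4980 for S100a9, 2942 for mature and 25422 for immature markers.

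S100a11 was the third S100 gene past 2-fold in mutant spleen. It was at 1190, 970 and 1190 with PBS and at 1600, 2090 and 1750 with LPS, so that all 3 LPS means lay above the PBS means. Its log2 ratios were 0.43, 1.11 and 0.56, and the mutant one fell short of 2-fold with equal group totals. S100a10 was at 466, 420 and 491 with PBS and at 400, 591 and 549 with LPS, with log2 ratios of -0.22, 0.49 and 0.16, the last of which turned below 0 with equal group totals. Between the 2 annexin-binding genes, S100a11 alone had all LPS means above all PBS means in both tissues on the authors' scale. The share of all entries that do so was not counted.

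S100a4 was the gene past 2-fold on the low side, in knockout spleen. It was at 346, 320 and 416 with PBS and at 298, 200 and 156 with LPS, and every LPS mean was below every PBS mean. The log2 ratios were -0.21, -0.68 and -1.41, where lung had 0.25, 0.70 and 1.25, and with equal group totals the mutant ratio passed 2-fold too. S100a4 is expressed by memory T cells among others. T cell markers (6 of 6 listed, none at 0) summed to 2093, 2502 and 2672 with PBS in the same groups. With LPS they summed to 1488, 926 and 769. Lung T cell sums, beside higher S100a4, were 340, 431 and 368 with PBS and 248, 367 and 354 with LPS. In spleen, monocyte sums were 4399, 3908 and 3451 with PBS and 3543, 3928 and 4126 with LPS. With LPS 4, 3 and 4 of the 8 monocyte markers were at least 2-fold lower in wild type, mutant and knockout. Another 2, 3 and 2 were at least 2-fold higher, and the median log2 ratios were -1.16, -0.53 and -0.33. Fibroblast sums were 5503, 3585 and 3183 with PBS and 2554, 2981 and 3958 with LPS. The part of these cells was not tested.

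S100a6 in spleen was at 446, 416 and 469 with PBS and at 453, 583 and 441 with LPS, with log2 ratios of 0.02, 0.49 and -0.09, the first below 0 with equal group totals. S100a1 was at 115, 82.9 and 101 with PBS and at 94.3, 153 and 102 with LPS, with log2 ratios of -0.28, 0.88 and 0.01, the last below 0 with equal group totals. The mutant spleens with LPS thus held the highest mean of both genes. S100a13 was at 157, 138 and 181 with PBS and at 169, 170 and 116 with LPS, with log2 ratios of 0.11, 0.30 and -0.64; with equal group totals the first 2 were below 0 and the last passed 2-fold. S100a16 was at 114, 99.1 and 93.1 with PBS and at 114, 102 and 152 with LPS, with log2 ratios of 0.00, 0.04 and 0.70, where the wild type and mutant ratios were below 0 with equal group totals. Unlike in lung, S100a16 was not lower with LPS in any genotype on the authors' scale. S100b rested on 14 to 18 reads in wild type spleen with PBS and on 2 with LPS, on 3 and 1 in the mutant and on 8 to 13 and 1 in the knockout, so no ratio is given.

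**Figure D4:**
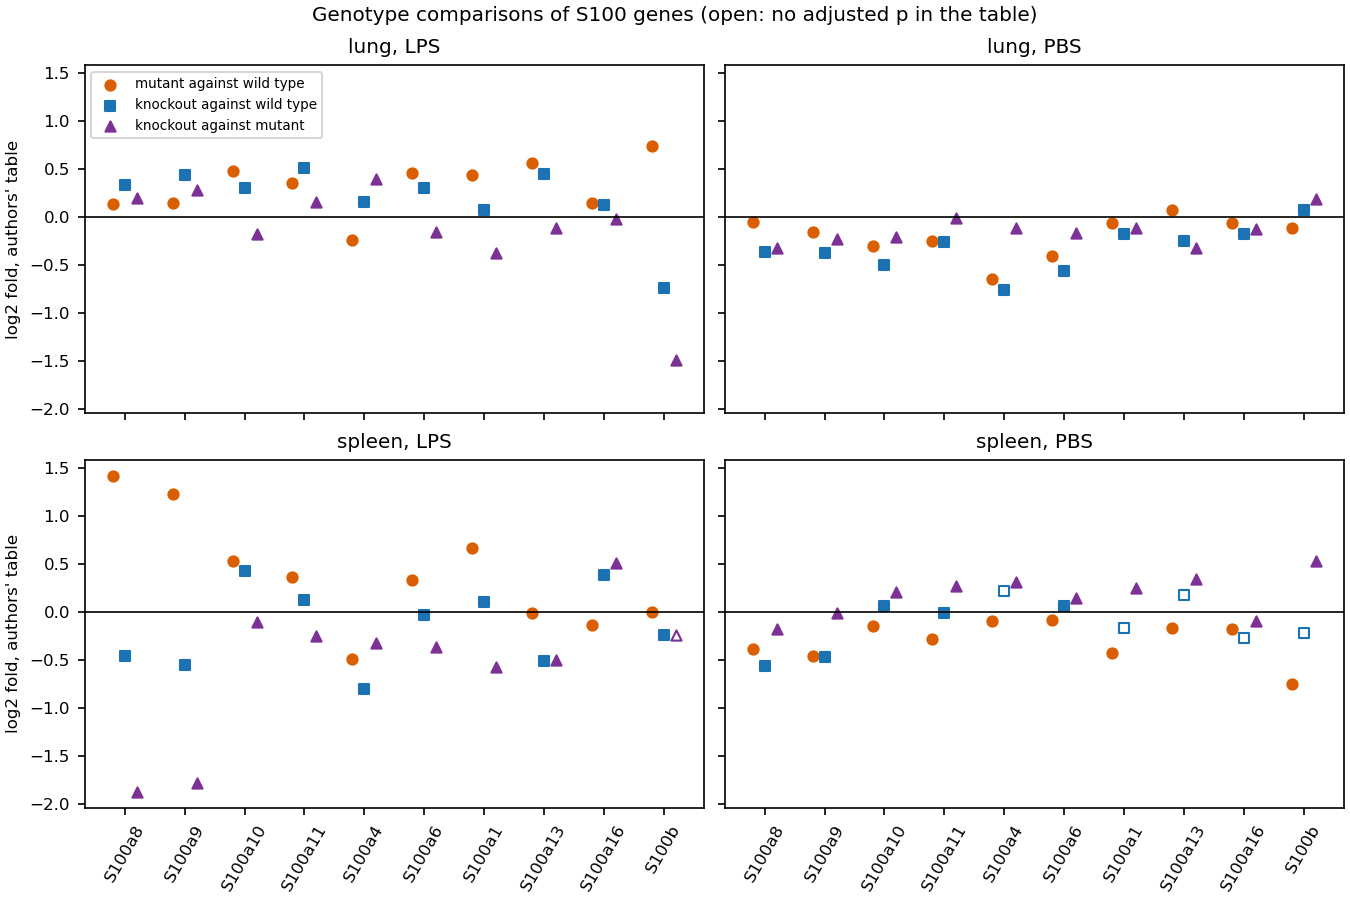
The authors' deposited log2 folds between genotypes for each S100 gene, with lung above, spleen below, LPS at left and PBS at right, one marker per comparison and open markers where the table has no adjusted p-value. No fold has an adjusted p under 0.05; the lowest belong to S100a8 (-1.87, adjusted p 0.105) and S100a9 (-1.78, adjusted p 0.135) in knockout against mutant spleen under LPS.

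The genotype comparisons ask which genes depend on lincRNA-Cox2 or its locus. None of the 10 S100 genes passed an adjusted p under 0.05 in any of the 12 comparisons of the authors' deposited tables, nor under 0.1; DESeq2 is the test named in the submitters' processing notes, no other tool was run and unadjusted p-values were not used here. No adjusted p is given for 5 genes (S100a1, S100a4, S100a13, S100a16 and S100b) in knockout against wild type spleen under PBS and for S100b in knockout against mutant spleen under LPS, so these could not pass. The background of calls was low. Under LPS the share of all tested entries called was 0.0715% in mutant against wild type lung, 0.441% in knockout against wild type lung, 0.243% in knockout against mutant lung, and 0.00545%, 0.0241% and 0.177% in the same comparisons of spleen. Under PBS it was 0.00524%, 0.0421% and 0.0523% in lung and 0%, 0.16% and 0% in spleen. A count of 0 among 10 genes therefore lies at the background. The comparisons against wild type share its libraries, and all 3 pairs share groups.

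In the authors' deposited tables, the calprotectin genes had the smallest adjusted p of the family, in knockout against mutant spleen under LPS: S100a8 had a log2 fold of -1.87, adjusted p 0.105, and S100a9 -1.78, adjusted p 0.135. The same genes had log2 folds of 1.42 and 1.23 in mutant against wild type spleen, adjusted p 1 for both, and of -0.45 and -0.55 in knockout against wild type spleen, adjusted p 0.826 and 0.788, per the authors' deposited table. The means behind these folds were 733, 2350 and 502 for S100a8, and the difference of the mutant from the other genotypes did not pass the test. In lung under LPS their folds against wild type were 0.14 and 0.15 in the mutant (adjusted p 0.994 and 0.990) and 0.34 and 0.44 in the knockout (0.865 and 0.794) in the authors' deposited table.

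The other genes also had no call under LPS. In lung, S100a11 stood at a log2 fold of 0.51 in the knockout (adjusted p 0.381), and S100a13 at 0.57 in the mutant (0.717) against 0.46 in the knockout (0.421), per the authors' deposited table. S100a10 and S100a6 stood at 0.48 and 0.46 in the mutant, adjusted p 0.972 for both, in the authors' deposited table. S100b, on few reads, had a fold of -1.48 in knockout against mutant lung, adjusted p 0.398, per the authors' deposited table. In spleen, S100a4 stood at -0.80 in the knockout, adjusted p 0.660, and S100a1 at 0.67 in the mutant, adjusted p 1, in the authors' deposited table. None of these differences passed the test.

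The signs of the folds in lung differed between treatments, without a call. Per the authors' deposited table, 9 of 10 genes had a fold above 0 under LPS in mutant against wild type lung and 9 of 10 in knockout against wild type lung, with median log2 folds of 0.40 and 0.31 (0.01 and -0.01 over all entries). Under PBS the same comparisons had 1 of 10 above 0 each, with medians of -0.13 and -0.31, in the authors' deposited table. S100a4 had the largest PBS difference in lung, with folds of -0.65 in the mutant and -0.76 in the knockout, adjusted p 1 for both, in the authors' deposited table. In spleen 6 and 4 of 10 were above 0 under LPS and 0 and 4 under PBS, per the authors' deposited table.

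The LPS ratios of the lines therefore lay above those of wild type for most genes. In lung the log2 ratio was higher in the mutant for 10 of 10 genes, by a median of 0.50, and in the knockout for 9 of 10, by a median of 0.79, while the medians over all entries were 0.02 and -0.02. The mutant exceeded wild type by 0.87 for S100a6 and 0.81 for S100a10; S100b, also at 0.87, had counting half-widths of 0.75 and 0.61 in the 2 ratios. The widest gaps of the knockout were those of S100a4 (1.00), S100a6 (0.89) and S100a9 (0.88). In spleen, without S100b, the mutant ratio was higher for 8 of 9 genes, by a median of 0.68, with S100a8 at 2.19, S100a9 at 2.07 and S100a1 at 1.16. The knockout ratio in spleen was higher for 5 of 9, by a median of 0.13, and lower by more than 1 for S100a4 (-1.19). These are differences between 4 group means, they were not tested, and both lines are set against the same wild type groups.

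Receptors, binding partners and targets of S100 proteins were followed as a list of 31 genes, all of them in both tables, and none was called between genotypes in any comparison of the authors' deposited tables. With LPS, 8 of 29 measured were at least 2-fold higher and 4 lower in wild type lung (13.9% and 14.3% of all entries), 14 and 1 of 30 in the mutant (15.5% and 16%), and 11 and 3 of 30 in the knockout (16.9% and 17.7%). In spleen the counts of 31 were 3 higher and 6 lower in wild type (13.5% and 14.8% of all entries), 9 and 3 in the mutant (15.3% and 16.7%), and 10 and 4 in the knockout (16.6% and 18.7%). Median log2 ratios were 0.50, 0.68 and 0.60 in lung and 0.13, 0.44 and 0.52 in spleen.

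Among the receptors, Ager (RAGE) was at 16800, 11300 and 13100 in lung with PBS and at 12000, 15100 and 15700 with LPS. The treatments overlapped, with log2 ratios of -0.49, 0.42 and 0.26, and in spleen Ager lay between 63 and 146. Tlr4, a receptor of both LPS and calprotectin, was higher with LPS in lung and lower in spleen in all 3 genotypes. It was at 137, 152 and 149 in lung with PBS and at 333, 310 and 316 with LPS, and in spleen at 102, 83.6 and 76.3 with PBS and at 40.4, 38.7 and 49.5 with LPS. Cd69, an early activation receptor of lymphocytes that binds calprotectin, was higher with LPS in both tissues, with wild type log2 ratios of 3.49 in lung and 3.17 in spleen. Fpr1, the formyl peptide receptor of neutrophils, had 3.38 in wild type lung and 0.57, 2.53 and 1.97 in spleen of the 3 genotypes in that order.

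Cybb, Ncf1 and Cyba, subunits of the phagocyte NADPH oxidase to which calprotectin delivers arachidonic acid, were higher with LPS in lung, with wild type log2 ratios of 2.32 for Cybb, 2.79 for Ncf1 and 0.68 for Cyba. In wild type spleen these genes had 0.52, 0.85 and 0.75. Anxa2, the partner of S100a10, was at 5190, 4260 and 3970 in lung with PBS and at 7170, 9040 and 7510 with LPS, and in spleen at 1060, 711 and 770 with PBS and at 2160, 2190 and 2200 with LPS. Its spleen log2 ratios were 1.03, 1.62 and 1.51, where S100a10 had -0.22, 0.49 and 0.16. Anxa1, the partner of S100a11, had log2 ratios of 1.11, 2.05 and 1.56 in lung and 0.01, 1.49 and 1.56 in spleen.

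Il1a and Fgf1, the cargoes of the S100a13 pathway, went apart. Il1a (interleukin 1 alpha) had wild type log2 ratios of 3.79 in lung and 3.06 in spleen, and Fgf1 had -1.21 and -2.42, against -0.60 and 0.11 for S100a13. Plat, the tissue plasminogen activator that the annexin A2 complex holds at the cell surface, was at 390, 441 and 425 in lung with PBS and at 2252, 3085 and 1757 with LPS. Its smallest adjusted p between genotypes in the authors' deposited lung table was 0.07. Kcnk3, a potassium channel whose transport to the membrane involves S100A10, was lower with LPS in both tissues, with wild type log2 ratios of -3.46 and -2.28. Myh9, the myosin bound by S100A4, had 0.69, 1.06 and 0.82 in lung and -0.16, -0.20 and -0.32 in spleen. Cacybp, bound by S100A6, had 0.50, 0.63 and 0.57 in lung and 0.38, 0.87 and 0.87 in spleen, and Ryr2 and Atp2a2, the calcium handling partners of S100A1, had -0.18 and 0.55 in wild type lung.

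Between genes, levels were compared per kb of annotated transcript within a tissue. The order of the means over all 15 libraries in lung was S100a9 (9711 normalized counts per kb), S100a11 (8434), S100a8 (5000), S100a6 (2175), S100a10 (1927), S100a1 (904), S100a16 (768), S100a13 (669), S100a4 (600) and S100b (7.95). In spleen it was S100a9 (3873), S100a11 (3014), S100a8 (1879), S100a10 (718), S100a6 (647), S100a4 (552), S100a13 (215), S100a1 (162), S100a16 (101) and S100b (0.849). S100a4 thus stood sixth of the genes in spleen and ninth in lung. Neighbours in these orders cannot be separated from replicate error, since no spread is given, and 8 of 10 ranks in each tissue were the same without division by length. Other family entries were low in spleen, all at or under 3.86 normalized counts in every group for S100a3, S100a7a, S100a14 and S100g. In lung S100a14, an epithelial member, was at 48, 44.5 and 39.2 with PBS and at 44.9, 119 and 55.9 with LPS, and S100g, a calcium carrier of epithelia, at 192, 167 and 137 with PBS and at 164, 232 and 156 with LPS. For both, mutant lung with LPS had the highest mean. S100pbp, which encodes a binding protein of S100P and no S100 protein, lay between 28.7 and 86.8 in the 12 groups.

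Likeness of pattern was measured as the root mean square difference of log2(mean + 1) over the 12 groups, centred within each tissue, against 9199 entries with an overall mean of at least 50 in both tables. Groups share libraries across genes, so likeness is a description. Among the 10 genes the closest pair was S100a8 and S100a9, at 0.09, followed by S100a6 and S100a10 (0.22), S100a1 and S100a13 (0.23) and S100a10 and S100a11 (0.23). Pairs of genes that change little also come out close by this measure. The Pearson correlations of these pairs over the 12 groups were 0.998, 0.92, 0.48 and 0.87 in that order. S100a9 and S100a11 correlated at 0.91 although their difference was 0.87. Outside the family, Cd177, a surface protein of neutrophils, was closest to both S100a8 (0.21, where the median entry had 1.28) and S100a9 (0.27, median 1.24). Ifitm6 came next for S100a8 (0.30) and Lrg1, a secreted glycoprotein, for S100a9 (0.31); the third entry of both has only a clone name. S100a4 was closest to an entry with a clone name (0.18), Rassf2 (0.20) and Fam111a (0.21), against a median of 0.58. S100a6 was closest to Mrpl33 (0.12), Psme4 (0.12) and B9d2 (0.13), with a median of 0.41. S100b, itself too low to be among the 9199, was closest to Adamts5 (0.28), Itga8 (0.30) and Col14a1 (0.31), with a median of 0.83. Its spleen means rest on 1 to 18 reads per group, so its neighbours are uncertain.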

How the data were processed

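MRNA libraries from lungs and spleens were analysed from 1 deposited table per tissue. STAR 2.5.3a, Bowtie2, SAMtools, bedtools and DESeq2, with mm10, are named in the submitters' processing notes without order or settings. Per the file headers, the deposited means are a signal: counts divided by size factors and averaged over the libraries of a group. The authors' log2 folds and their adjusted p-values (a score of the deposited tables, since 6 lung and 5 spleen lines were broken and left out) were taken as given. In spleen 1026 split symbols were rejoined. The 2 tables were normalized separately.

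LPS was set against PBS by the log2 ratio of group means (pseudocount of 1, mean of at least 10 in either group, limit of 2-fold); no test was possible without values per library, which were not used here. Genotype calls are the authors' adjusted p under 0.05. Counting intervals (95%, counting error only) used size factors recovered from the step that 1 read makes in low means. A step was accepted where at least 98% of values fell within 0.5% of whole reads, which resolved all 12 groups. In a test on simulated data the steps were recovered in 9 of 10 cases. On simulated lung means 100% of 200 4-fold changes passed the 2-fold limit and 0.0546% of unchanged entries did. That simulation held counting error only, at equal depth, and planted changes only in entries of higher mean. It therefore gives no rate of false passes for the real groups, whose libraries also vary in other ways. Symbol repeats were resolved by the highest overall mean. Python 3.11.15, pandas 2.3.3, numpy 2.4.6 and matplotlib 3.10.9 were used.

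Named genes were the 10 members, other S100 entries, partners that were called, changed by over 2 (log2) in wild type or bind a member described, the 3 entries most alike to 5 members, and markers of 23 cell type lists where a list moved. The members, lists and limits were chosen with earlier results of these data known. Alternatives were other pseudocounts, no filter, a 1.5-fold limit, centring, summed repeats, an adjusted p up to 0.1, direction from the ratio of means, no division by length and, chosen after seeing the data, equal group totals.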

Additional observations from a re-analysis of the deposited data

How the results depend on the processing

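Counts of S100 genes past the LPS limit depended on it where values lay near 2-fold. At a 1.5-fold limit the count was 6 in place of 3 in wild type lung, 5 in place of 3 in mutant spleen and 3 in place of 1 in knockout spleen. With no filter on low values, S100b entered in spleen and the counts were 1 in place of 0 in wild type and 2 in place of 1 in the knockout; 2 was also the knockout count with equal group totals. The other counts stayed within 1.5 times their value, and in wild type lung the 1 gene counted as lower, S100b, was lost with a pseudocount of 5 or centring. Shares of all entries were computed for the main setting only, so counts under the other settings have no background beside them. With equal group totals 12 of 60 log2 ratios changed sign, as named beside each gene, and 54 of 60 moved by more than their counting error. Pseudocounts of 0.1 and 5, centring and summed repeats kept 60 of 60 ratios within it, although centring took S100a6 in wild type lung from -0.01 to 0.02 and S100a16 in wild type spleen from 0.00 to -0.02. All 12 genotype counts stayed at 0 with an adjusted p up to 0.1, and 117 of 120 deposited folds had the sign of the ratio of means. No paired analysis was possible because the deposited columns are group means with no replicate numbers; for the same reason no library could be left out. Depth limits S100b most, at 1 to 18 reads in each spleen group, and the mutant spleen group with LPS rests in part on 0.940 M reads.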
